A study of Mus musculus with 6 samples.

Results

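The 9 genes described here encode citric acid cycle enzymes of the mitochondrial matrix, namely Cs, Idh3a, Idh3b, Idh3g, Ogdh, Dlst, Sucla2, Fh1 and Mdh2. They were taken by gene name from a deposited table of 57180 genes, where each name had a single row. All 9 reached the filter for testing, which required 1 TPM or more on average across the 6 libraries, as did 15446 genes in all. TPM divides reads by transcript length and scales each library to one total, so levels can be compared between genes, but it keeps no read depth, and no counting interval can be given. The libraries came from inguinal white adipose tissue, the subcutaneous fat of the groin, taken from wild-type males, and all 6 carry the same batch label. In the HFD group (3 libraries) mice ate a high-fat diet, and in the HEP group (3 libraries) a high-fat diet with 0.5% hesperidin, a flavonoid glycoside of citrus fruit, in both cases for 12 weeks. Both groups thus shared the high-fat diet, and the control diet of the study's design is not analysed here. Strain and age were not given in the labels. The labels also do not say that the libraries came from separate animals; if they did not, the spread between them, and every p-value, would be technical.

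The citric acid cycle oxidises the acetyl group of acetyl-CoA to carbon dioxide and passes the electrons to the respiratory chain as NADH and reduced flavin. Pyruvate dehydrogenase and fatty acid oxidation supply the acetyl-CoA. In white fat cells the cycle also feeds lipid synthesis, since citrate formed by citrate synthase can be exported to the cytosol and cleaved to acetyl-CoA for new fatty acids. NAD-linked isocitrate dehydrogenase and the 2-oxoglutarate dehydrogenase complex are regulated steps at which carbon dioxide is released.

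The libraries differed in tissue content in ways that the diets did not fix. All 20 adipocyte markers were detected in every library, and Fabp4, the fatty acid binding protein of fat cells, ranged from 21102 to 35107 TPM. Ucp1, the heat-producing uncoupler of brown and beige fat, stayed between 0.05 and 1.73 TPM. Totals of the 10 brown and beige fat markers, Ucp1 among them, were less even and peaked at 463 TPM for HEP replicate 2. HFD replicates 1 to 3 had totals of 323, 217 and 172 TPM, while HEP replicates 1 and 3 reached only 145 and 147 TPM. The 12 T cell markers gave sums of 8.26, 21.2 and 606 TPM (HFD replicates 1 to 3) and 822, 11.9 and 889 TPM (HEP replicates 1 to 3), and the 12 B cell markers were high in the same 3 libraries, at 1341 to 2364 TPM against 209 to 342 TPM in the others. The 16 skeletal muscle markers summed to 214, 871 and 102 TPM in HFD and to 2051, 18124 and 63.5 TPM in HEP, so that HEP replicate 2 stood apart. Myh4 and Myoz1 were listed at 0 in HEP replicate 3, the only muscle markers at 0 in any library. The 12 liver markers singled out HEP replicate 2 and HFD replicate 1, whose averages of log2(TPM + 1) were 8.39 and 7.80. On that scale the remaining libraries ran from 3.11 (HEP replicate 1) to 4.80 (HFD replicate 3). In such bulk tissue, fewer cells of a type and less RNA per cell cannot be told apart.

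RefSeq promoter windows (build GRCm38.p6), from 250 bases before to 50 bases after a transcription start, were matched for 8 of the 9 genes; Idh3a was not matched. The windows of 3 genes are shown because these genes span the range of differences between the groups that is described below: Cs and Sucla2 had the larger differences among the matched genes, and Idh3b the smallest. Capitals mark exact matches, on either strand, to short motifs of factors known from nuclear genes of mitochondrial enzymes. The motifs were that of NRF1 (its match in Sucla2 reads GCGCCTGCGC, where the fifth base may be any), AAGGTCA (oestrogen-related receptors), CCGGAAG (GABP and other ETS factors), CCAAT (NFY), GGGCGG (SP and KLF factors) and AAGATGGC (YY1), and none of the matches shown overlapped another. The windows, 5′ to 3′ on the strand of the gene, are chr10:128337477-128337776 (plus strand) for Cs, chr14:73552536-73552835 (plus strand) for Sucla2 and chr2:130284402-130284701 (minus strand) for Idh3b.
Cs: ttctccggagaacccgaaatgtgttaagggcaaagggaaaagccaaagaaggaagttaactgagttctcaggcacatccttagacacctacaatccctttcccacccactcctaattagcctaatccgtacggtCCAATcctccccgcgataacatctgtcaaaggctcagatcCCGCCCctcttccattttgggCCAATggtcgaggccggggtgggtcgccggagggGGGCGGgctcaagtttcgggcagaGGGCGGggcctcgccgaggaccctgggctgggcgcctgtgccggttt
Sucla2: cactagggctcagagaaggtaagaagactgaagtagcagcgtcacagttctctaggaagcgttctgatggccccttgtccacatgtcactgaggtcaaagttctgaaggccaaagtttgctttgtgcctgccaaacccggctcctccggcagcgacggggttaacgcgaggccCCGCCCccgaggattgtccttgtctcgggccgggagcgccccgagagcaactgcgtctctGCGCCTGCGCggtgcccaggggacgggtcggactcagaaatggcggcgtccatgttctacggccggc
Idh3b: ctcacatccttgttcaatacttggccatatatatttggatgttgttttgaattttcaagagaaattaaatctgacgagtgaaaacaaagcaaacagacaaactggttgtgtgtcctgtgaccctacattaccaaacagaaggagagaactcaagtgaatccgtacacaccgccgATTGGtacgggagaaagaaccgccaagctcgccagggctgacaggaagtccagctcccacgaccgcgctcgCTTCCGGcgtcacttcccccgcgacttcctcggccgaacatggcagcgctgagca
The Cs window held 2 CCAAT matches and 3 GGGCGG matches. The Sucla2 window held 1 NRF1 match, beginning 17 bases before the start, and 1 GGGCGG match, while the Idh3b window held 1 CCGGAAG match and 1 CCAAT match. Over all 32851 windows of the table, 4.60% held the NRF1 motif, 8.86% CCGGAAG, 37.4% CCAAT and 35.7% GGGCGG. The receptor motif AAGGTCA, held by 4.72% of all windows, was in 1 of the 13 windows of the matched genes, an alternative start of Ogdh, and AAGATGGC, held by 2.75%, was in that of Idh3g. A match describes these letters and no more.

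The comparison of HEP with HFD asked how hesperidin changed the expression of these enzymes on a high-fat diet. No enzyme passed the test. In limma on log2(TPM + 1), 0 of the 9 genes had an adjusted p under 0.05, and the smallest was 0.879, against a background of 0% over all 15446 genes tested. Idh3a alone had an unadjusted limma p under 0.05, as did 1.81% of all tested genes, or 1.13% when only lower genes are counted. Every member nevertheless had a lower mean log2(TPM + 1) in HEP, which held for 41.4% of all tested genes, and their median log2 fold change was -0.23, where the median over all tested genes was 0.07. All HEP values lay below all HFD values for 3 of the 9 (Idh3a, Cs and Ogdh), as for 3.58% of all tested genes.

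**Figure D1:**
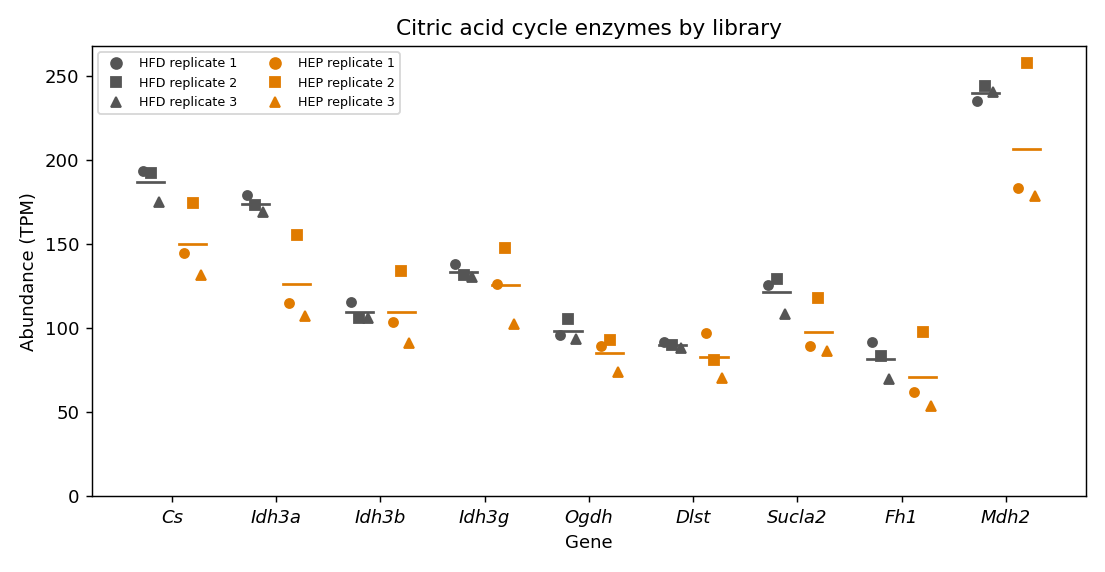
Abundance of the 9 citric acid cycle enzymes in TPM (vertical axis, from 0) in each of the 6 libraries, with a line at each group mean (n = 3). Idh3a is the gene whose groups stand farthest apart, with HFD at 169 to 179 TPM and HEP at 108 to 155 TPM, and HEP replicate 2 (squares) is the highest HEP library for 8 of the 9 genes.

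Citrate synthase (Cs) opens the cycle by joining acetyl-CoA to oxaloacetate. It reached 193.6, 192.5 and 174.9 TPM on the high-fat diet alone, against 144.7, 174.3 and 131.8 TPM with hesperidin. The groups did not overlap, but only 0.62 TPM separated the lowest HFD library from the highest HEP library. The means were 187 ± 10.5 TPM in HFD and 150.3 ± 21.8 TPM in HEP (SD, n = 3), and the log2 fold change came to -0.32 ± 0.15 (SE) with an adjusted limma p of 0.879.

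Idh3a, Idh3b and Idh3g encode the subunits of NAD-linked isocitrate dehydrogenase, which turns isocitrate into 2-oxoglutarate. The catalytic alpha subunit (Idh3a) measured 179, 173 and 169 TPM in the HFD libraries, and in the HEP libraries 115, 155 and 108 TPM, which gave means of 174 ± 4.87 and 126 ± 25.8 TPM (SD, n = 3). Its groups lay 13.9 TPM apart, and the log2 fold change came to -0.48 ± 0.17 (SE), its 95% interval running from -0.90 to -0.06. The unadjusted limma p was 0.0304 and the adjusted p 0.879. For both partner subunits the groups overlapped. The beta subunit (Idh3b), a partner without catalytic activity of its own, stood at 116, 106 and 106 TPM across the HFD libraries and at 104, 134 and 91.0 TPM across the HEP libraries, and HEP replicate 2 was above every HFD library. The group means of Idh3b were 109 ± 5.51 and 109.7 ± 22.1 TPM (SD, n = 3). That mean was slightly higher in HEP, although the log2 fold change came to -0.01 ± 0.17 (SE), its interval running from -0.44 to 0.41. Idh3b overlaps Nop56 on the opposite strand by 5 bases, the strand setting of the counting was not given, and Nop56 had 27.0 to 50.1 TPM in HFD and 30.0 to 73.1 TPM in HEP; its part in the Idh3b values was not tested. The regulatory gamma subunit (Idh3g) reached 138, 131 and 130.2 TPM on the high-fat diet alone, against 126, 148 and 103 TPM with hesperidin, also with HEP replicate 2 as the highest library. The log2 fold change of Idh3g was -0.10 ± 0.17 (SE). Without HEP replicate 2 the values were -0.17 for Idh3b and -0.23 for Idh3g, and without HEP replicate 3 they were 0.11 and 0.035. That of Idh3b was also above 0 without HFD replicate 1 (0.027) and without HEP replicate 1 (0.015).

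Ogdh and Dlst encode the E1 and E2 components of the 2-oxoglutarate dehydrogenase complex, which makes succinyl-CoA. Ogdh measured 95.7, 105 and 93.8 TPM in the HFD libraries, and in the HEP libraries 89.6, 92.9 and 73.7 TPM. These groups stayed apart by 0.87 TPM, with a log2 fold change of -0.21 ± 0.14 (SE), which was -0.10 without HEP replicate 3. Dlst stood at 91.8, 90.2 and 88.2 TPM across the HFD libraries and at 97.0, 81.0 and 70.4 TPM across the HEP libraries. It was the only member whose highest library was HEP replicate 1 and whose HEP replicate 2 was not the highest HEP library. Its HFD libraries agreed closely, with a coefficient of variation of 1.99% against 16.2% in HEP, and its log2 fold change was -0.13 ± 0.15 (SE). Without HEP replicate 1 it was -0.25, and without HEP replicate 3 it was -0.022. Dld, the E3 component that this complex shares with pyruvate dehydrogenase, reached 133, 132 and 115 TPM on the high-fat diet alone, against 102, 106 and 98.6 TPM with hesperidin. Dld is not among the 9 genes, and its groups did not overlap, with a log2 fold change of -0.30 ± 0.13 (SE) and an adjusted limma p of 0.879.

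Sucla2 encodes the ATP-linked beta subunit of succinyl-CoA ligase, the step of the cycle that yields a nucleoside triphosphate directly. It measured 126, 129 and 109 TPM in the HFD libraries, and in the HEP libraries 89.3, 118 and 86.3 TPM, where HEP replicate 2 overlapped the HFD range. Its log2 fold change was -0.32 ± 0.17 (SE), and -0.18 when the level of lymphocyte markers was a covariate (the lymphoid covariate). With the level of muscle markers as a covariate (the muscle covariate) it was -0.44, and with both covariates -0.25.

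Fumarase (Fh1) hydrates fumarate to malate, and mitochondrial malate dehydrogenase (Mdh2) oxidises malate to oxaloacetate. Fh1 stood at 91.6, 83.7 and 70.0 TPM across the HFD libraries and at 61.9, 97.8 and 53.9 TPM across the HEP libraries. It was the member with the widest spread, a coefficient of variation of 32.8% in HEP, and its log2 fold change was -0.24 ± 0.25 (SE). That value was -0.49 without HEP replicate 2, -0.15 without HFD replicate 1, -0.062 without HEP replicate 3, while the lymphoid covariate gave -0.0082. Kmo, which overlaps Fh1 on the opposite strand, reached 3.77, 1.38 and 10.5 TPM on the high-fat diet alone, against 22.4, 6.06 and 20.6 TPM with hesperidin; its part in the Fh1 values was not tested. Mdh2 measured 235, 244 and 240.2 TPM in the HFD libraries, and in the HEP libraries 184, 258 and 179 TPM. The HFD libraries of Mdh2 lay within a coefficient of variation of 1.83%, and HEP replicate 2 exceeded them all. The log2 fold change of Mdh2 was -0.23 ± 0.18 (SE). It was -0.40 without HEP replicate 2, -0.14 without HEP replicate 3, while the lymphoid covariate gave -0.12.

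Mdh2 was the most abundant of the enzymes in both groups, followed by Cs and Idh3a, and Fh1 the least abundant. In HFD the order by mean TPM was Mdh2, Cs, Idh3a, Idh3g, Sucla2, Idh3b, Ogdh, Dlst and Fh1. Neighbours whose HFD ranges overlapped were Cs and Idh3a, Sucla2 and Idh3b, and Dlst and Fh1. In HEP only Mdh2 stood clear of its neighbour, and Idh3b moved ahead of Sucla2 in mean. The SD was wider in HEP than in HFD for 9 of the 9 genes.

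**Figure D2:**
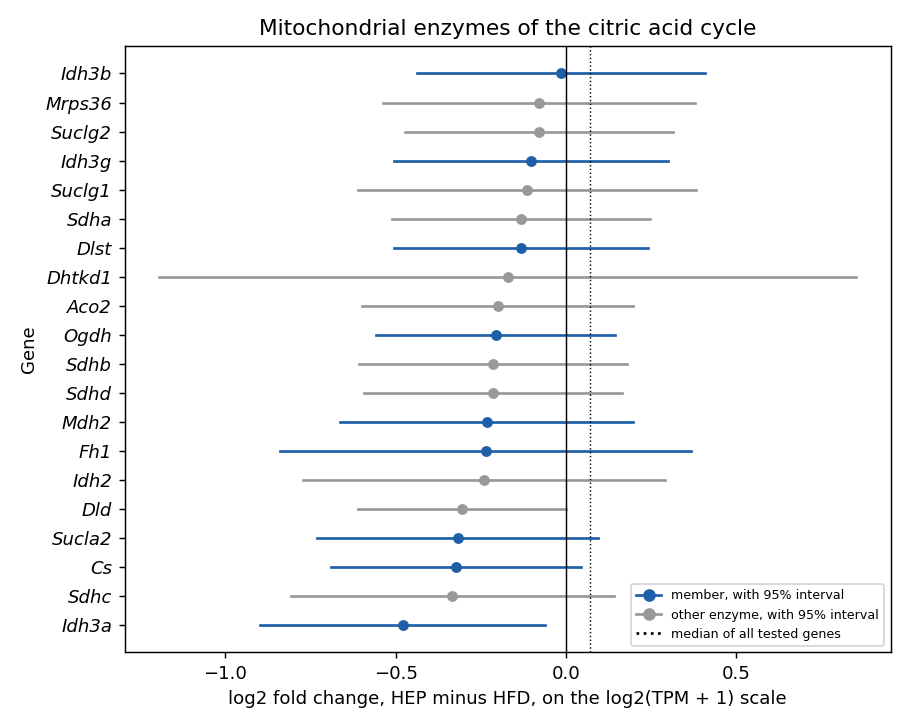
Log2 fold change of HEP minus HFD with its 95% limma interval (horizontal axis, log2(TPM + 1) scale) for the 9 enzymes and 11 other tested mitochondrial enzymes of the cycle. All 20 estimates lie below 0, and the interval of Idh3a, from -0.90 to -0.06, is the only one of the 9 that does not include 0; the dotted line is the median of all tested genes, 0.07.

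Ratios between genes within a library do not depend on how the library was scaled. Those of Idh3a to its partner subunits did not overlap between the groups. Idh3a had the lowest and Idh3b the highest log2 fold change of the 9 genes, so their ratio contrasts the extremes. Its log2 difference between the groups was the largest in size among all 190 pairs of the 20 tested genes listed with the cycle. The ratio pairs were chosen with earlier results of these data known. The ratio of Idh3a to Idh3b was 1.55, 1.63 and 1.59 across the HFD libraries, against 1.11, 1.16 and 1.18 across the HEP libraries, with means of 1.59 ± 0.0423 and 1.15 ± 0.0376 (SD, n = 3). The groups were well separated, and HEP replicate 2 lay between the other HEP libraries. The part of muscle or lymphocyte content in this ratio was not tested. Of the 14606 tested genes other than Idh3b with a TPM above 0 in every library, 6.38% also had a ratio to Idh3b that was lower in every HEP library than in every HFD library. The ratio of Idh3a to Idh3g was 1.29, 1.32 and 1.301 across the HFD libraries, against 0.911, 1.05 and 1.05 across the HEP libraries. The catalytic transcript thus exceeded that of the gamma subunit in all HFD libraries, and was close to it or below it in HEP. In contrast, the ratio of Idh3b to Idh3g overlapped between the groups, with 0.821 ± 0.0145 in HFD and 0.873 ± 0.0450 in HEP (SD, n = 3).

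The other fixed pairs gave a mixed picture. Sucla2 exceeded Suclg2, the GTP-linked beta subunit, by ratios of 3.03, 3.39 and 2.87 on the high-fat diet and 2.62, 2.63 and 2.60 with hesperidin, without overlap. Idh3a exceeded Idh2, the NADP-linked mitochondrial enzyme, by ratios of 1.42, 1.32 and 1.51 on the high-fat diet and 1.18, 1.11 and 1.31 with hesperidin. The latter groups were separated narrowly. Groups overlapped for Ogdh to Dlst, Mdh2 to its cytosolic counterpart Mdh1, and Cs to Acly, the cytosolic enzyme that cleaves citrate. By a two-sided exact permutation test, the 4 pairs without overlap each had p = 0.1, the smallest that 3 libraries against 3 can give, and an adjusted p of 0.2 over the 8 pairs. This test could therefore not pass a threshold of 0.05 for any pair, and no other test of the ratios was run.

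Set against the other 19 tested mitochondrial genes listed with the cycle, the ratio of Idh3a was lower in every HEP library than in every HFD library for 15. This tally was added after the values were seen. The 4 exceptions were Ogdh, Fh1, Dld and Dhtkd1. Of these, Dhtkd1 acts outside the cycle and had only 1.95 to 7.12 TPM. For Dlst the groups stood apart only in the fourth digit, with a lowest HFD ratio and a highest HEP ratio of 1.92. Among all 190 pairs of the 20 genes the groups stood apart in 38, or 20%, and these include the 15 of Idh3a. Cs was on the lower side in 6 of its 19 ratios and Sucla2 in 5, while Idh3b was on the higher side in 9 and Idh3g in 3, and Ogdh and Fh1 in 0 on either side. Some enzymes outside the 9 had like counts, with Sdhc on the lower side in 5, Suclg2 on the higher side in 5 and Sdha in 4. The ratios share genes and are not independent.

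The other genes listed with the cycle resembled the 9 genes in direction. Of the 11 that were tested, with Dhtkd1 and Mrps36 among them, 0 passed in either direction. All 11 had a lower mean in HEP, and their median log2 fold change was -0.20. Sdha to Sdhd, the succinate dehydrogenase subunits that also belong to respiratory complex II, were in this group. Ogdhl, a relative of Ogdh, missed the filter. Pyruvate entry and filling of the cycle was mixed: 0 of 18 genes passed, 10 were lower and 8 higher in mean, with a median of -0.10. Pdhb, a subunit of pyruvate dehydrogenase, stood at 133, 139 and 134 TPM across the HFD libraries and at 119.97, 123 and 107 TPM across the HEP libraries, without overlap. Pdhx, which anchors the E3 component in that complex, reached 21.8, 22.0 and 19.9 TPM on the high-fat diet alone, against 16.4, 19.5 and 15.3 TPM with hesperidin, with 0.40 TPM between the groups.

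Citrate export and the cytosolic counterparts included single genes with larger differences than any member. None of these 11 genes passed, but groups were apart for 5 lower and 2 higher genes, beside 3.58% lower and 1.88% higher over all tested genes. Slc25a10, the dicarboxylate carrier, measured 99.3, 109 and 87.9 TPM in the HFD libraries, and in the HEP libraries 56.3, 73.4 and 53.6 TPM, which gave -0.69 ± 0.17 (SE) as log2 fold change. Idh1, the cytosolic NADP-linked isocitrate dehydrogenase, stood at 195, 214 and 181 TPM across the HFD libraries and at 132, 173 and 136 TPM across the HEP libraries. In the other direction, Slc25a12, an aspartate-glutamate carrier, reached 3.47, 6.60 and 7.90 TPM on the high-fat diet alone, against 13.9, 14.4 and 11.2 TPM with hesperidin. Its log2 fold change came to 1.07 ± 0.30 (SE). That value moved between 0.78 and 1.27 when 1 library was left out, and was 0.47 with the lymphoid and muscle covariates together. The adjusted limma p was 0.879 for Slc25a10, Idh1 and Slc25a12 alike. Of 12 assembly factors and regulators of the cycle, 6 were lower and 6 higher in mean with 0 passing. For Lipt2, which transfers the lipoyl precursor, the groups were apart by 0.02 TPM, lower in HEP. Among regulators of mitochondrial biogenesis 8 of 11 were tested, 0 passed, and the HEP mean was the higher for 7 (median log2 fold change 0.21). Of all 15446 tested genes, 9057 had a higher mean log2(TPM + 1) in HEP. The groups overlapped for all 8 regulators.

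The member values also differed between libraries within the HEP group. Summed, the 9 enzymes measured 1267, 1256 and 1182 TPM in the HFD libraries, and in the HEP libraries 1012, 1259 and 896 TPM. HEP replicate 3 was the lowest library for 9 of the 9 genes, and HEP replicate 1 lay below every HFD library for 8. HEP replicate 2 lay below every HFD library for 4 and above every one for 4. The adipocyte markers followed the same order among the HEP libraries, with sums of 59398, 62807 and 48823 TPM across HFD libraries against 38312, 59901 and 35998 TPM across HEP libraries. HEP replicates 1 and 3 were rich in lymphocyte markers, as was HFD replicate 3. Muscle markers were highest in HEP replicate 2 (18124 TPM), followed by HEP replicate 1 (2051 TPM). The liver markers and the brown and beige fat markers also peaked in HEP replicate 2. The median log2 fold change of the members was -0.13 with the lymphoid covariate, -0.36 with the muscle covariate and -0.25 with both, against -0.23 with neither. Beyond these estimates, the part of tissue content in the member values was not tested. Without HEP replicate 2 the median log2 fold change of the members was -0.40, and without HEP replicate 3 it was -0.10. The mean log2 TPM of the 9 enzymes relative to that of the adipocyte markers was -2.55, -2.64 and -2.33 across the HFD libraries, against -2.36, -2.50 and -2.22 across the HEP libraries, so the groups overlapped on that scale. With libraries scaled to the adipocyte markers, which moved the median of all tested genes from 0.07 to 0.40, the median of the members was 0.14, and Idh3a alone of the 9 had a negative log2 fold change, at -0.11.

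Relative to 20 nuclear genes of oxidative phosphorylation, the mean log2 TPM of the 9 enzymes was -0.90, -0.94 and -0.94 across the HFD libraries, against -0.81, -0.99 and -0.96 across the HEP libraries. These values overlapped, and both extremes, -0.81 and -0.99, were in HEP (replicates 1 and 2). Relative to the 13 protein genes of the mitochondrial genome, the mean was -6.25, -5.58 and -5.86 across the HFD libraries, against -5.74, -5.77 and -6.13 across the HEP libraries, with HFD replicates 1 and 2 as the extremes.

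**Figure D3:**
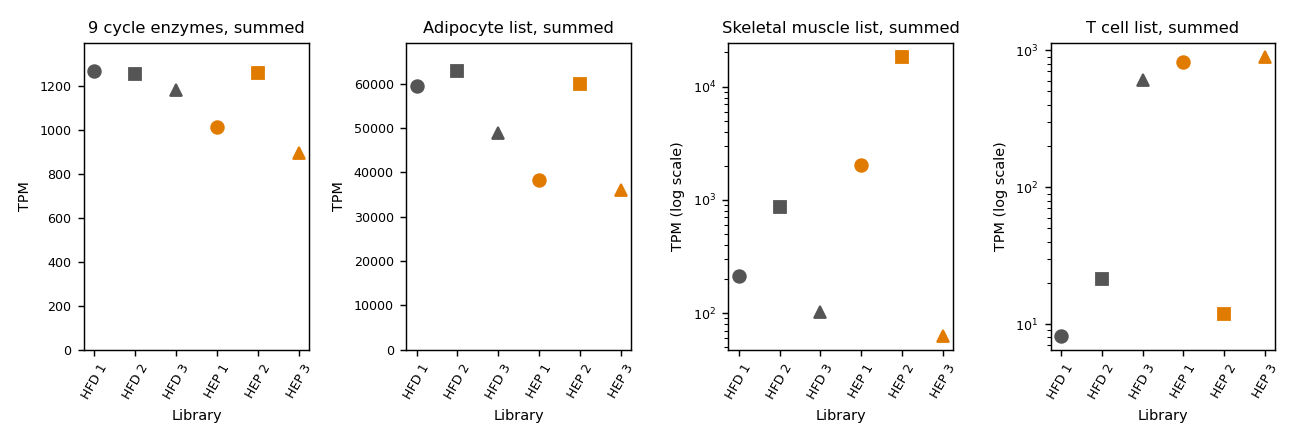
Summed TPM of the 9 enzymes and of the adipocyte, skeletal muscle and T cell marker lists in each of the 6 libraries (linear axes from 0 for the enzymes and adipocyte markers, log axes for muscle and T cell markers). The enzymes and the adipocyte markers are both lowest in HEP replicates 1 and 3, and HEP replicate 2 has the highest muscle sum, 18124 TPM.

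The genes outside the pathway lists whose profile lay closest to the average of the 9 enzymes were found by the root mean square difference over the 6 libraries of log2(TPM + 1) centred on each gene's mean. They were Mrpl28, Wnt9a, Hint3, Rasip1, Etfrf1, Aldh4a1, Ndufv1 and Hmgb3, at differences of 0.024 to 0.043 log2 units. Mrpl28 is a mitochondrial ribosomal protein, Ndufv1 a subunit of respiratory complex I and Aldh4a1 a mitochondrial enzyme of proline breakdown. Wnt9a, Hint3, Rasip1 and Hmgb3 are not mitochondrial enzymes, and Wnt9a had only 1.3 to 2.25 TPM. Mrpl28 stood at 48.5, 49.9 and 45.2 TPM across the HFD libraries and at 40.2, 49.8 and 35.8 TPM across the HEP libraries. Of the 9 enzymes themselves Cs lay nearest to their average, at 0.055 log2 units. Dlst lay farthest, at 0.167, followed by Fh1 at 0.143 and Idh3a at 0.134. Among all tested genes Cs ranked 32 by this difference, Idh3a 1196, Fh1 1437 and Dlst 2159.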

How the data were processed

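RNA was sequenced from inguinal white fat with a TruSeq RNA kit, per the labels' protocols. The authors deposited TPM per gene and library, with their mean TPM per group, which was not used. Per the submitters' processing notes the tools were RSEM, HISAT2, StringTie, fastp and DESeq2, with neither role nor version; the build was not given in the sources used here. Columns summed to between 999999.71 and 1000000.7. Genes averaging 1 TPM or more were compared as log2(TPM + 1) between HEP and HFD by limma 3.58.1 under R 4.3.3 (trend on intensity, two-sided), with Benjamini-Hochberg adjustment over 15446 genes and a threshold of 0.05. A fold change on this scale understates that of low genes. Ratios were tested by exact permutation in SciPy 1.17.1. The fit was tested on simulated data. Members, 5 pathway lists, 8 marker lists, 8 ratio pairs and the rule for named genes (the members, ratio partners, up to 3 genes per pathway list whose groups were apart, 8 genes of like profile and the 2 most abundant markers of a list) were chosen with earlier results of these data known, and Ucp1, Gm25541 and the genes overlapping members were named outside that rule after their values were seen. The motifs were chosen after the expression values were seen. ATP synthase genes were matched through older symbols. Overlapping genes were taken from GENCODE M21. Some results are not reported here. Alternatives covered pseudocounts, filters, scalings, covariates, weights, a replicate block and each library left out.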

Additional observations from a re-analysis of the deposited data

How the results depend on the processing

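No member passed at an adjusted p under 0.05 in limma under any alternative run. Over all genes 1 passed without HEP replicate 2, Gm25541, and 0 under every other alternative; leaving out 1 library gave 0 to 1. The median of the members was 0.14 with adipocyte scaling. It was -0.022 with scaling to the 20 tested genes listed with the cycle, which was added after seeing the data. The median lay between -0.39 and -0.13 otherwise, with a range of -0.40 to -0.10 when 1 library was left out. These 2 scalings moved the median of all tested genes to 0.40 and 0.26, quantile normalization moved it to -0.06, and lymphoid and muscle covariates moved it to -0.11. With adipocyte scaling the log2 fold changes turned to 0.050 for Cs, 0.36 for Idh3b, 0.27 for Idh3g, 0.16 for Ogdh, 0.24 for Dlst, 0.052 for Sucla2, 0.13 for Fh1, 0.14 for Mdh2, 0.067 for Dld, 0.051 for Pdhx and 0.15 for Pdhb. With scaling to the genes listed with the cycle they turned to 0.20 for Idh3b, 0.11 for Idh3g, 0.0032 for Ogdh and 0.078 for Dlst. Idh3b also turned, to 0.10, with the lymphoid covariate; leaving out 1 library moved it between -0.17 and 0.11 and Idh3g between -0.23 and 0.035. Idh3a was negative under every alternative run, between -0.65 and -0.11. The Ogdh to Dlst log2 ratio moved between -0.15 and 0.0071 without 1 library, and no other ratio turned. With the replicate block the Idh3a log2 fold change was -0.48 and the median of the members -0.23. In limma with that block the adjusted p of the members ran from 0.753 to 0.982, and 0 genes passed, so no call changed. Same-numbered libraries deviated together with correlations of -0.35, 0.37 and 0.65, so the numbers were not taken to pair them. Depth is unknown, so its limit on low genes such as Lipt2 cannot be given.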
